A study of Mus musculus with 8 samples.

Results

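The coagulation and fibrinolysis genes described here are 7 genes: F3, F7, F10, F13a1, Thbd, Plau and Plaur. They were taken by symbol, with earlier results of these data known, from the 37310 gene IDs of a deposited table of counts from mouse alveolar macrophages, phagocytes that live on the air side of the lung. Of the 7, 6 passed the filter on low counts and were tested among 14537 genes, and F13a1 did not pass. The table held 8 bulk RNA-seq libraries, 2 for each of 4 groups, with RNA of 3 mice or 3 cultures pooled in every library. In texAM, alveolar macrophages of C57BL/6 mice had been expanded in culture, injected into the trachea of C57Bl/6-Ly5.1 recipients that were 2 months old, and sorted from the lung as SiglecF+, CD11c+, CD45.2+ cells 4 months after transfer. In exAM, cells of C57BL/6 mice had been cultured for 2 months and were not sorted. In tAM, cells labelled as transplanted, without the word expanded, had spent 4 months in vivo and were sorted by the same CD45.2+ gate. HostAM were SiglecF+, CD11c+, CD45.1+ cells of the C57Bl/6-Ly5.1 strain. The mice of both strains were wild type and 8 weeks old at the start, per the protocols, and no group carried an engineered allele. It is not stated whether the mice behind HostAM had been given cells or saline. In bulk libraries such as these, fewer cells of a type and less RNA per cell cannot be told apart.

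Coagulation starts when tissue factor, the product of F3, meets factor VII from plasma at a cell surface. The pair activates factor X, which with its cofactor factor V makes thrombin, and thrombin turns fibrinogen into fibrin that factor XIII cross-links. Thrombomodulin, the product of Thbd, binds thrombin and turns it towards activating protein C, an anticoagulant. Fibrin is dissolved by plasmin, which urokinase (Plau), held on cells by its receptor (Plaur), makes from plasminogen. Alveolar macrophages are known to carry tissue factor and urokinase, and in the airspace they meet fibrin when plasma leaks in.

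In cultured cells, the genes that start clotting and fibrinolysis stood far above their level in the lung, F3 by 5.50-fold and Plau by 6.96-fold over HostAM, and both by more over tAM. Both were lower in texAM than in exAM, by 13.2-fold and 9.61-fold, a difference between separate pools of cells. F7, F10, Thbd and Plaur differed between any 2 groups by at most 1.50-fold. Of these, F7, F10 and Plaur averaged over 0.5 counts per base of transcript, where counts followed the library total in part. Over 1 count per base, where F7 averaged, they followed it weakly. The effect of that on the size of their changes was not tested. Between the 3 groups of lung cells no member was called. In the sentences below a gene is called at an adjusted p under 0.05, from edgeR's quasi-likelihood test with Benjamini-Hochberg adjustment across the 14537 genes. Levels are in CPM, counts scaled to the TMM-adjusted library total, as mean ± SD over 2 libraries where not given for each. A fold change is on the log2 scale with its standard error (SE).

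**Figure D1:**
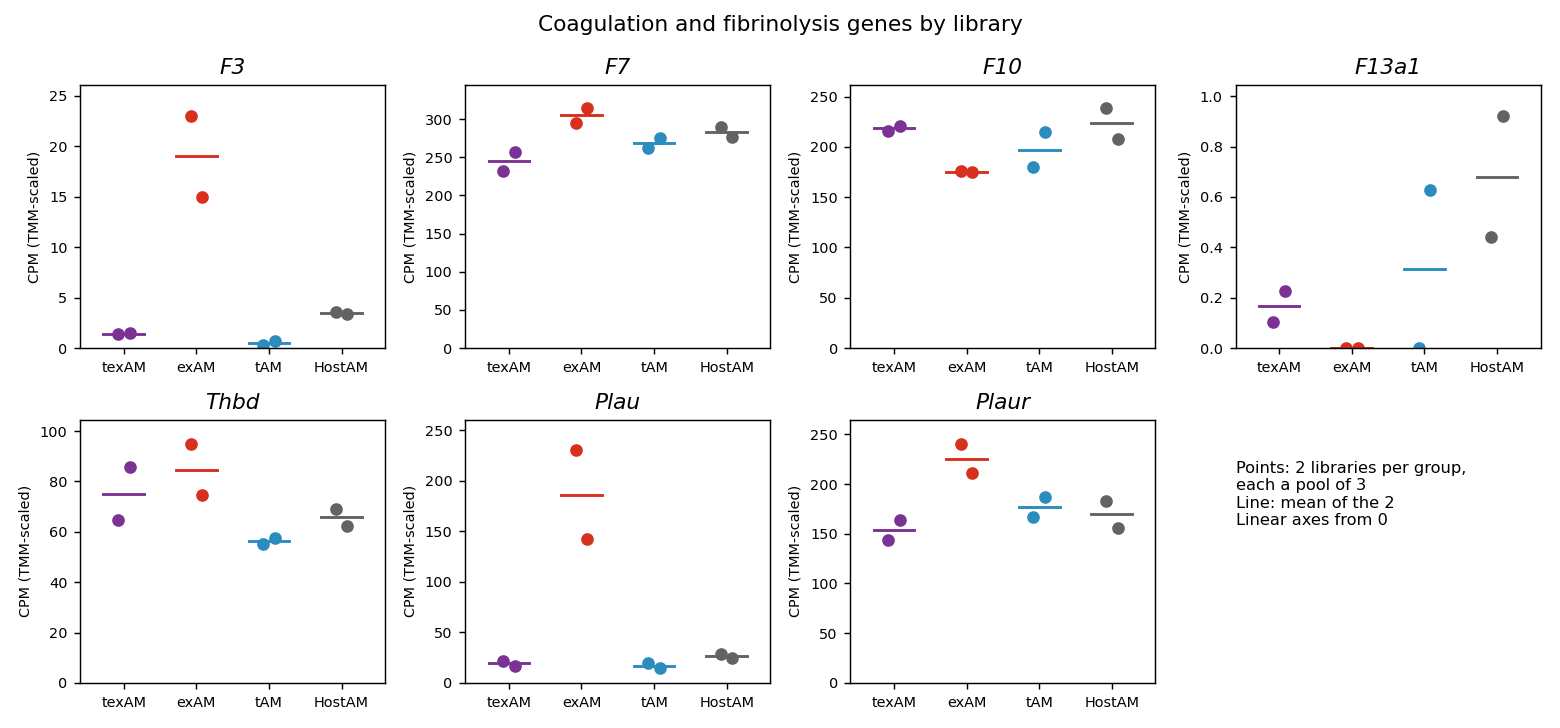
CPM of the 7 members in each of the 8 libraries, 1 panel per gene, with the groups texAM, exAM, tAM and HostAM from left to right; points are libraries and bars are group means. The exAM points of F3 and Plau lie above all lung libraries, and those of F7, F10, Thbd and Plaur lie among or near the lung points.

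The libraries held 9154128 and 8382620 counts in texAM, 6546272 and 7110439 in exAM, 8302130 and 7733568 in tAM, and 8898362 and 8513822 in HostAM. Alveolar macrophage markers summed to 2415 to 3515 CPM per library. Epithelial markers summed to 7.20 and 2.78 CPM in exAM, where 7 of the 10 were at 0, against 119 to 218 CPM in the 6 lung libraries. Endothelial markers summed to 31.7 and 20.7 CPM in exAM, mostly Cdh5 (167 and 115 counts, 0 in each lung library), against 0.576 to 7.99 CPM in lung libraries, while Cldn5, Tek, Emcn, Ramp2 and Tie1 were at 0 in all 8 libraries. Fibroblast and smooth muscle markers, in exAM mostly Pdgfra (114 and 269 counts, 0 in 5 of the 6 lung libraries), summed to 30.9 and 51.1 CPM in exAM and 5.27 to 21.1 CPM in lung libraries. Of the same fibroblast list, Dcn had 18 and 21 counts in exAM, while Col1a1, Col1a2 and Col3a1 had 0 in both exAM libraries. Acta2, at 8.23 and 6.33 CPM in exAM, lay within the range of the lung libraries, 5.14 to 19.5 CPM. Platelet and megakaryocyte markers lay between 2.16 and 14.5 CPM. Ddx3y, a Y-linked gene, had 55 and 59 counts in exAM and 0 in each lung library. Xist, the RNA of the inactive X chromosome of female cells, was at 801 and 1058 CPM in exAM and 1329 to 1759 CPM in lung libraries, so the exAM pools held counts of both kinds. Culture and the sex of the cells cannot be told apart in any comparison with exAM. How far other cells or sex entered the results was not tested. Counts of heavily covered genes followed the library total weakly or in part, for a cause that was not tested. The totals of the 2 exAM libraries differed by -0.12 on the log2 scale. Between them, the 226 genes with over 1 count per base of transcript differed by a median of 0.01. The 839 genes with 0.5 to 1 counts per base, where F10 and Plaur averaged, differed by -0.06, and the 5080 genes with 0.1 to 0.5 by -0.15. In HostAM, with totals differing by 0.06, the 839 genes differed by 0.07.

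**Figure D2:**
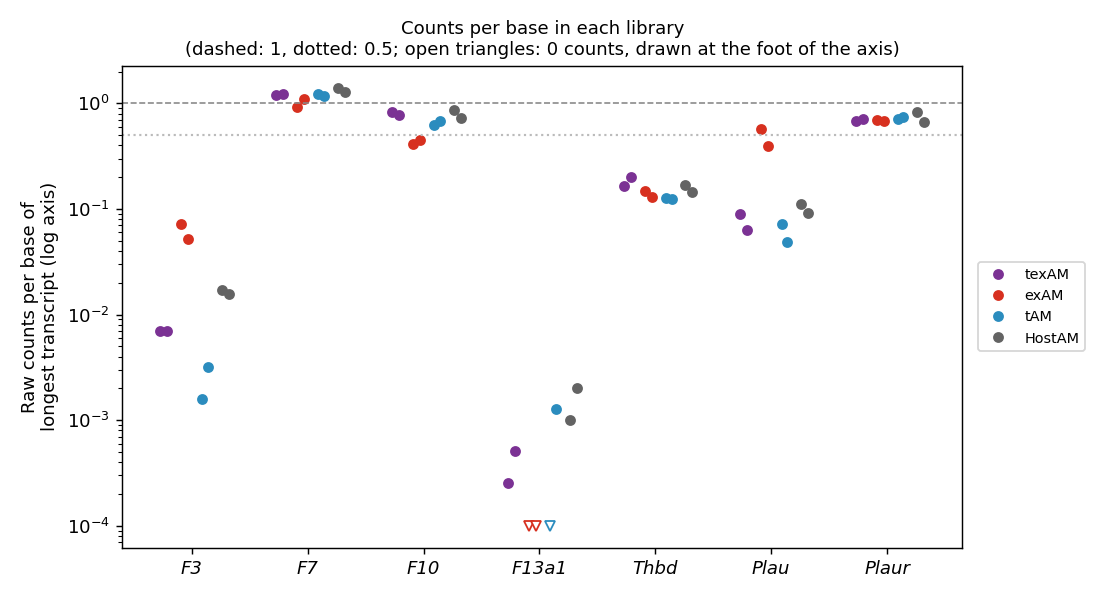
Raw counts per base of the longest annotated transcript (log axis) for each member in each library, with groups in the order texAM, exAM, tAM and HostAM; open triangles mark 0 counts. F7 lies at 0.926 to 1.41 counts per base, and F10 and Plaur at 0.409 to 0.865, whereas F3, Thbd and most Plau points lie below the line at 0.5.

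F3 encodes tissue factor, the cell-surface receptor and cofactor of factor VII that starts coagulation. The gene (ENSMUSG00000028128) lies on chr3:121723537-121735048 of GRCm38, on the plus strand. F3 had 13 and 13 counts in texAM (1.36 and 1.48 CPM), 134 and 97 in exAM (23.0 and 15.0 CPM), 3 and 6 in tAM (0.348 and 0.752 CPM) and 32 and 29 in HostAM (3.53 and 3.34 CPM). Both exAM libraries were above all others, HostAM came next, then texAM, then tAM, and no pair of groups overlapped. Relative to tAM, F3 rose in exAM by 5.08 (SE 0.60, adjusted p = 8.38e-05), a 33.8-fold difference. Relative to HostAM, it rose in exAM by 2.46 (SE 0.50, adjusted p = 0.00260), a 5.50-fold difference. In texAM it fell by 3.73 relative to exAM (SE 0.53, adjusted p = 3.28e-04). Within the lung no difference was called by edgeR: texAM over tAM was 1.35 (SE 0.61, adjusted p = 0.638), and texAM over HostAM was -1.27 (SE 0.52, adjusted p = 0.340). For tAM over HostAM the value was -2.62 (SE 0.59, adjusted p = 0.174), with 9 against 61 counts in all. That last difference was called by the DESeq2 Wald test (-2.65, adjusted p = 0.0433) and with no filter on low counts (adjusted p = 0.0148) but not otherwise, with adjusted p from 0.0148 to 0.514 over all its alternatives.

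The 250 bases before the transcription start are shown for 4 of the 5 members that have an entry in RefSeq's GRCm38.p6 promoter table. They set F3, the member with the widest range, and the urokinase receptor gene Plaur beside the neighbours F7 and F10. Capitals mark AP-1 motifs, searched as TGANTCA, which reads alike on both strands. All 4 are printed from the plus strand, 5′ to 3′, from chr3:121723287-121723536 (F3), chr7:24462233-24462482 (Plaur), chr8:13025784-13026033 (F7) and chr8:13037058-13037307 (F10).
F3: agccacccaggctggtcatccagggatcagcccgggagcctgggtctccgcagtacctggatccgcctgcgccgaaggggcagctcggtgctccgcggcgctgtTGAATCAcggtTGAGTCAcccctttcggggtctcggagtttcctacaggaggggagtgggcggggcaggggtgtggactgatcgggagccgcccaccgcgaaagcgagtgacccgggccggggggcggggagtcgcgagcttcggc
Plaur: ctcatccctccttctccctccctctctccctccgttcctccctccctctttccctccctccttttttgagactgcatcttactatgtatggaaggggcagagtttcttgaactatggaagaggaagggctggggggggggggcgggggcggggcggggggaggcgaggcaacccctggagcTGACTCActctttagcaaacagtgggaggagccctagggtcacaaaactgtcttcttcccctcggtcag
F7: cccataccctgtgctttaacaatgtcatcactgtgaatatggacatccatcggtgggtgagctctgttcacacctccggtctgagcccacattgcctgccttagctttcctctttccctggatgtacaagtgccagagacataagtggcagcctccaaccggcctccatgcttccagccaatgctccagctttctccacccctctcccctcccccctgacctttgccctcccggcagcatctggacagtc
F10: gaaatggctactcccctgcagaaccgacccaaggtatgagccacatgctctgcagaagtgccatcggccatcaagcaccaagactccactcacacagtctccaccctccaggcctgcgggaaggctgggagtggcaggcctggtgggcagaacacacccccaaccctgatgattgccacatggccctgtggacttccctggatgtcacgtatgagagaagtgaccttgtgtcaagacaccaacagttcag

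F3 held 2 AP-1 matches and Plaur 1, and F7, F10 and F13a1 held none, where 6.7% of 32851 promoters of the same length held at least 1. The NF-kB motif, searched as GGG and CC with any 5 bases between them (45.8% of promoters), was found at 4 positions in F3, 2 in Plaur and 1 in F10, counting both strands, so that overlapping matches are counted apart. The Sp1 motif GGGCGG (32.7% of promoters) was found 3 times each in F3 and Plaur, and in neither F7 nor F10. The Egr1 motif GCGNGGGCG (4.7% of promoters) was found once, in Plaur, overlapping Sp1 matches. The PU.1 motif GAGGAA (23.3% of promoters) was found at 2 positions in Plaur, 1 in F7 and 1 in F13a1. None of the 5 members with an entry held the E-box CACGTG (6.0% of promoters). These are matches of letters and not sites shown to be bound, and Plau and Thbd are named only.

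Plau encodes urokinase, the protease that turns plasminogen into plasmin, and lies on chr14:20836660-20843385 (ENSMUSG00000021822, plus strand). It had 208 and 149 counts in texAM (21.7 and 17.0 CPM), 1344 and 922 in exAM (230.5 and 142 CPM), 169 and 114 in tAM (19.6 and 14.3 CPM) and 261 and 215 in HostAM (28.8 and 24.7 CPM). The exAM libraries stood apart from all 6 lung libraries, texAM and tAM overlapped, and HostAM was above both. Plau averaged 186 ± 62.3 CPM in exAM and 17.0 ± 3.76 CPM in tAM, and rose by 3.45 (SE 0.27, adjusted p = 5.87e-06). Relative to HostAM, at 26.8 ± 2.84 CPM, it rose in exAM by 2.80 (SE 0.26, adjusted p = 1.92e-05), or 6.96-fold. In texAM, at 19.4 ± 3.34 CPM, it fell by 3.26 relative to exAM (SE 0.27, adjusted p = 8.43e-06). The interval of texAM over tAM, -0.40 to 0.78 (95%), included 0. Plau and F3 were the only members whose calls held under all alternatives.

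Plaur encodes the urokinase receptor, a membrane-anchored protein that also binds vitronectin (ENSMUSG00000046223, chr7:24462484-24475968, plus strand). It had 1376 and 1439 counts in texAM (144 and 164 CPM), 1401 and 1365 in exAM (240.3 and 211 CPM), 1435 and 1490 in tAM (167 and 187 CPM) and 1664 and 1351 in HostAM (183 and 156 CPM). Raw counts lay between 1351 and 1664 in all libraries, and only the scaled values set exAM above the rest. By test, Plaur rose in exAM by 0.35 over tAM (SE 0.13, adjusted p = 0.0442) and by 0.41 over HostAM (SE 0.13, adjusted p = 0.0235), and it fell in texAM by 0.55 relative to exAM (SE 0.13, adjusted p = 0.00571). The 839 genes with 0.5 to 1 counts per base, the range that held Plaur, had medians of 0.19, 0.20 and -0.25 in these comparisons, and 40.6% of them were called higher in exAM than in tAM. Without scaling, the ratio of mean counts was -0.08 for exAM over tAM, -0.12 over HostAM and 0.03 for texAM over exAM. These ratios make no allowance for the library totals, which were smallest in exAM. With library size in place of TMM, Plaur kept its direction but was not called for exAM over tAM (0.15, adjusted p = 0.342) or over HostAM (0.23, adjusted p = 0.152). The size and the call of Plaur thus depended on the scaling. The call over tAM was also lost without exAM replicate 1, either tAM library or either texAM library (adjusted p = 0.0559 to 0.231), that over HostAM without exAM replicate 1 or HostAM replicate 2 (0.129 and 0.124) or with only the 4 libraries compared (0.0503), and that of texAM over exAM without texAM replicate 1 (0.0583).

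Set against its receptor within each library, where the scaling cancels, Plau had 15.1 and 10.4 counts per 100 Plaur counts in texAM, 95.9 and 67.5 in exAM, 11.8 and 7.65 in tAM, and 15.7 and 15.9 in HostAM. The exAM ratios were above all lung ratios. These ratios were not tested.

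**Figure D3:**
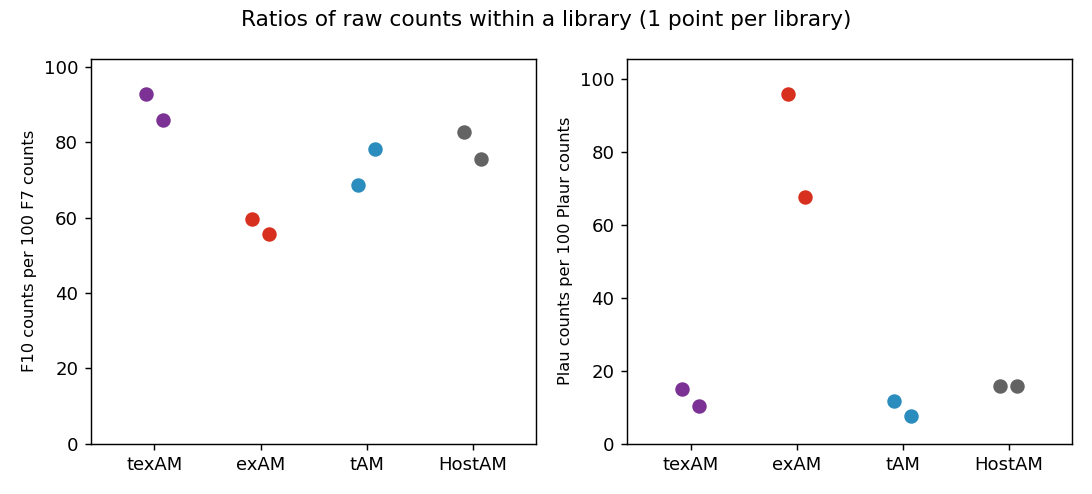
Counts of 1 gene per 100 counts of another in each library, by group from texAM on the left to HostAM on the right; the panels are F10 per 100 F7 (left) and Plau per 100 Plaur (right), both on linear axes from 0, and points are libraries. The exAM libraries have the lowest F10 per 100 F7 (59.5 and 55.7) and the highest Plau per 100 Plaur (95.9 and 67.5).

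F7 and F10 encode the proteases factor VII and factor X, which are made mainly by the liver for plasma and which tissue factor brings together. They lie side by side on the plus strand of chromosome 8, F7 (ENSMUSG00000031443) at chr8:13026034-13035809 and F10 (ENSMUSG00000031444) at chr8:13037308-13056676, with 1498 bases between them. F7 had 2226 and 2257 counts in texAM (232 and 257 CPM), 1722 and 2037 in exAM (295 and 315 CPM), 2256 and 2192 in tAM (262 and 275 CPM) and 2621 and 2396 in HostAM (289 and 276 CPM). F7 was lowest in texAM and highest in exAM after scaling, while its raw counts were lowest in exAM. In texAM, F7 fell by 0.32 relative to exAM (SE 0.09, adjusted p = 0.0174). For exAM over tAM its value was 0.18 (SE 0.09, adjusted p = 0.123) and for exAM over HostAM 0.11 (SE 0.09, adjusted p = 0.341), neither called. The 226 genes with over 1 count per base, as F7 had in most libraries, had a median of -0.43 for texAM over exAM, and 69.5% of them were called lower. The ratio of raw counts of F7 for texAM over exAM was 0.25, of the opposite sign, and the call was lost with library size in place of TMM scaling (-0.10, adjusted p = 0.391) and without texAM replicate 1 (-0.25, adjusted p = 0.153) or exAM replicate 2 (-0.30, adjusted p = 0.0653), within a range of 0.00504 to 0.391 over its alternatives.

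F10 had 2067 and 1939 counts in texAM (216 and 221 CPM), 1024 and 1135 in exAM (176 and 175 CPM), 1548 and 1715 in tAM (179.7 and 215 CPM) and 2166 and 1809 in HostAM (239 and 208 CPM). It was lowest in exAM on both scales. In exAM it fell by 0.35 relative to HostAM (SE 0.11, adjusted p = 0.0308), and in texAM it rose by 0.32 relative to exAM (SE 0.11, adjusted p = 0.0458). For exAM over tAM the value was -0.17 (SE 0.11, adjusted p = 0.252), which was called lower with library size in place of TMM scaling (-0.37, adjusted p = 0.0229). The call of texAM over exAM was lost by the DESeq2 Wald test (adjusted p = 0.0597), with DESeq2 size factors (0.0639), with scaling from genes at 0.5 counts per base or less (0.0845) and without either texAM library, either exAM library or HostAM replicate 2 (0.0524 to 0.174), within a range of 0.00385 to 0.174 over its alternatives. That of exAM over HostAM was lost without either exAM library, either texAM library or HostAM replicate 1 (0.0531 to 0.176), within a range of 0.00392 to 0.176. Within libraries, F10 had 92.9 and 85.9 counts per 100 F7 counts in texAM, 59.5 and 55.7 in exAM, 68.6 and 78.2 in tAM, and 82.6 and 75.5 in HostAM. The neighbours therefore did not keep 1 ratio: it was lowest in exAM and highest in texAM, with no overlap of either with another group. F7 lay at 0.926 to 1.41 counts per base and F10 at 0.409 to 0.865, and exAM had the smallest library totals. Counts of genes over 1 count per base followed the library total weakly, and those of genes at 0.5 to 1 followed it in part. The part of this in the ratio was not tested.

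Thbd, a gene of 1 exon on chr2:148404466-148408188 (ENSMUSG00000074743, minus strand), encodes thrombomodulin. It had 618 and 752 counts in texAM (64.5 and 85.8 CPM), 553 and 483 in exAM (94.8 and 74.6 CPM), 474 and 460 in tAM (55.0 and 57.7 CPM) and 628 and 541 in HostAM (69.2 and 62.3 CPM). The exAM and texAM libraries overlapped, HostAM overlapped texAM, and tAM was below all others. Thbd rose in exAM by 0.59 relative to tAM (SE 0.18, adjusted p = 0.0252), or 1.50-fold, and the call was lost with library size in place of TMM scaling (0.39, adjusted p = 0.108) and without exAM replicate 1 (0.42, adjusted p = 0.178) or either tAM library (0.110 and 0.0793), within a range of 0.0108 to 0.178 over its alternatives. Its difference of exAM over HostAM, 0.36, was not called (SE 0.18, adjusted p = 0.130), nor was that of texAM over exAM, -0.17 (SE 0.18, adjusted p = 0.465). Endothelium is the usual site of Thbd. Of the 8 endothelial markers 3 were tested, and the other 5 were at 0 in all 8 libraries. Cdh5 and Kdr (11 and 17 counts in exAM and 0 in tAM) were called higher in exAM than in tAM. Pecam1 went the other way and was not called, with 7 and 2 counts in exAM against 10 and 27 in tAM. The part of endothelial cells in the difference of Thbd was not tested.

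F13a1 encodes the A subunit of factor XIII, the transglutaminase that cross-links fibrin, and is better known in monocytes and interstitial macrophages. It had 1 and 2 counts in texAM, 0 and 0 in exAM, 0 and 5 in tAM, and 4 and 8 in HostAM, and so was not tested in the filtered table. Set against 3 counts over the group, 0.244 CPM, its exAM level was at least 2.77-fold lower than in HostAM (0 against 12 counts). With no filter it was called in none of the 6 comparisons (adjusted p = 0.126 to 1.00). The gene, on chr13:36867178-37050244 (ENSMUSG00000039109, minus strand), overlaps exons of the antisense gene Gm30489, and the strand used in counting is not stated, so its few counts cannot be assigned with certainty. Markers of monocytes and interstitial macrophages, at 144 to 311 CPM in sum per library, were present in all groups.

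Per kilobase of the longest transcript, the level of F7 was highest of the 7 in every group, at 132 CPM per kilobase in texAM, 164 in exAM, 144 in tAM and 152 in HostAM. In exAM, Plaur stood at 112 CPM per kilobase, Plau at 79.6, F10 at 70.1, Thbd at 22.8 and F3 at 10.1. In lung cells F10 and Plaur came after F7, at 76.6 to 89.3 CPM per kilobase, then Thbd at 15.1 to 20.2, Plau at 7.24 to 11.4 and F3 at 0.294 to 1.83. The rank of Plau next to F10 in exAM is within the SD of Plau. F3 was thus the lowest of the 6 tested members in every group, also where it was raised.

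Counted together, 4 of the 6 tested members were called higher in exAM than in tAM (F3, Plau, Plaur and Thbd) and 0 lower, where 21.5% of all tested genes were called higher and 23.2% lower. Against HostAM, 3 were higher in exAM (F3, Plau and Plaur; 20.9% of all tested genes) and F10 was lower (23.3%). In texAM, F10 was higher than in exAM (23.2% of all tested genes) and F3, F7, Plau and Plaur were lower (20.5%). With library size in place of TMM scaling, the calls against tAM were 2 higher and 1 lower, against HostAM 2 higher and 1 lower, and for texAM over exAM 1 higher and 3 lower. The median over the 6 was 0.47 for exAM over tAM, 0.39 for exAM over HostAM and -0.43 for texAM over exAM, where the medians over all tested genes were -0.09, -0.08 and 0.11. These comparisons share the exAM libraries. The members' share in 1 direction rests on 6 genes and is read against these background shares only.

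**Figure D4:**
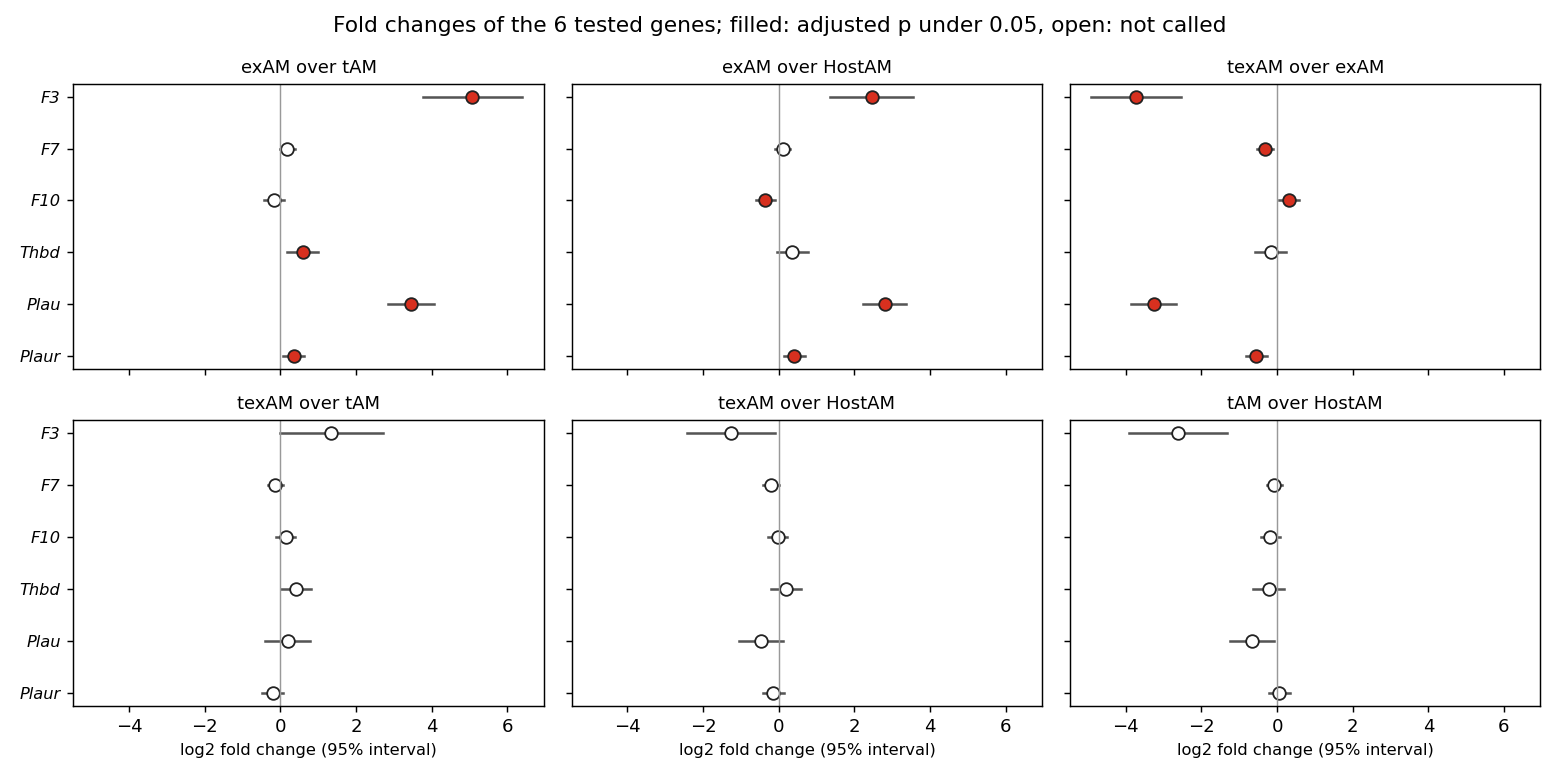
Log2 fold changes of the 6 tested members in the 6 comparisons, with 95% intervals; filled points were called at an adjusted p under 0.05. F3 and Plau lie far from 0 where exAM is compared (5.08 and 3.45 over tAM), and no point is filled in the lung pairs.

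Among the 3 lung groups, edgeR called 0 of the 6 members in each pair. The background was as low: 0.00688% of tested genes were called higher and 0 lower in texAM than in tAM, 0.248% higher and 0.0825% lower in texAM than in HostAM, and 0.0206% in each direction in tAM relative to HostAM. At an unadjusted p under 0.05 the members numbered 1 for texAM over tAM (Thbd, 0.41), 2 for texAM over HostAM (F3 and F7) and 2 for tAM over HostAM (F3 and Plau, Plau at -0.66), where 7.84%, 13.2% and 10.0% of all tested genes were below that p. The DESeq2 Wald test called only F3 for tAM over HostAM, where it called 190 of the 14537 tested genes. A p that misses the threshold does not show that the lung groups were alike: the 95% interval of tAM over HostAM was -3.92 to -1.32 for F3 and -1.24 to -0.07 for Plau.

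The wider pathway was read from 6 lists of 56 genes, the members left out, of which 54 were in the table and 32 were tested. In exAM 12 were higher and 6 lower than in tAM, 12 higher and 5 lower than in HostAM, and in texAM 7 were higher and 13 lower than in exAM. Of all tested genes, 21.5% were higher and 23.2% lower in the first comparison, 20.9% and 23.3% in the second, and 23.2% and 20.5% in the third. The median over the 32 was 0.02, 0.21 and -0.17 in these comparisons, against -0.09, -0.08 and 0.11 over all tested genes, and 0.27 for the second with genes at 0 counts set to their bounds. The liver products Plg, Fga, Fgb, Fgg, F12 and Proc had 0 counts in every library, and Plat, the other plasminogen activator, had 1 count in all. Of the plasminogen activators listed, urokinase alone was counted more than once.

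Among the inhibitors of fibrinolysis, Serpine2, protease nexin 1, an inhibitor of thrombin and urokinase, had 16 and 2 counts in texAM, 97 and 72 in exAM, 1 and 0 in tAM, and 0 and 2 in HostAM. It rose in exAM (adjusted p = 0.00104), with a ratio to tAM of 228 (95% counting interval 40.3 to 9051). Serpinb6a was also higher in exAM than in tAM, by 0.96 (SE 0.10, adjusted p = 2.78e-05), but it overlaps exons of Nqo2 and Ripk1 on the other strand and its counts are uncertain.

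Of 18 coagulation factors and their helpers, 8 were tested, with 3 higher in exAM than in tAM and 0 lower. F5, the cofactor of factor X, had 23 and 3 counts in texAM, 103 and 103 in exAM, 12 and 0 in tAM, and 0 and 17 in HostAM. It rose by 4.53 in exAM over tAM (SE 1.39, adjusted p = 0.0230) and fell by 3.58 in texAM relative to exAM (SE 1.29, adjusted p = 0.0454). Exons of F5 overlap those of Gm16548 on the other strand. The other calls were Lman1, by 0.59 (SE 0.12, adjusted p = 0.00254), and Mcfd2, by 0.78 (SE 0.14, adjusted p = 0.00156), the receptor pair that carries factors V and VIII out of the endoplasmic reticulum. Vwf, von Willebrand factor, averaged 244 ± 1.96 CPM in texAM, 213 ± 7.50 in exAM, 241 ± 1.28 in tAM and 299 ± 34.8 in HostAM. It fell in exAM relative to HostAM (-0.49, SE 0.10, adjusted p = 0.00296), and endothelial and platelet markers stood at the low levels given above in the same libraries. F8 had 21 and 22 counts in texAM, 2 and 1 in exAM, 31 and 5 in tAM, and 11 and 8 in HostAM. It rose in texAM relative to exAM by a ratio of 9.62 (adjusted p = 0.0447, 95% counting interval 3.08 to 48.5). Its differences of exAM over tAM and over HostAM were not called (adjusted p = 0.0528 and 0.176).

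Of the 11 anticoagulant genes, 7 were tested, with 2 higher and 1 lower in exAM than in tAM. Procr, the endothelial protein C receptor that works beside thrombomodulin, averaged 12.2 ± 2.09 CPM in texAM, 23.7 ± 1.18 in exAM, 8.95 ± 3.13 in tAM and 16.2 ± 0.140 in HostAM. It rose by 1.41 in exAM over tAM (SE 0.33, adjusted p = 0.00601). Pros1, protein S, the cofactor of activated protein C, averaged 274 ± 5.71 CPM in texAM, 161 ± 17.0 in exAM, 282 ± 8.92 in tAM and 258 ± 2.18 in HostAM. It fell by 0.81 in exAM relative to tAM (SE 0.10, adjusted p = 1.07e-04) and rose by 0.77 in texAM relative to exAM (SE 0.10, adjusted p = 1.59e-04). Anxa5, which covers the phospholipid surface that clotting needs, was 0.36 higher in exAM than in tAM (SE 0.09, adjusted p = 0.00675), while its raw counts were lowest in exAM (2200 and 2284). Tfpi, the inhibitor of tissue factor with factor VII, was at 33.0 ± 6.18 CPM in texAM, 31.5 ± 4.22 in exAM, 34.3 ± 0.430 in tAM and 33.2 ± 10.9 in HostAM, and was not called in any of the comparisons with exAM (adjusted p = 0.724 for exAM over tAM). Its exAM values lay within the range of the lung libraries.

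Of the 4 thrombin and protease-activated receptors, 3 were tested and 2 were lower in exAM than in tAM. F2r, a receptor that thrombin activates by cutting it, had 271 and 176 counts in texAM, 1 and 2 in exAM, 41 and 114 in tAM, and 23 and 77 in HostAM. Its exAM counts were near 0, and texAM was above all other libraries. Lymphocyte markers, 5 genes led by Cd3e, summed to 97.4 and 71.3 CPM in texAM, 0.172 and 0 in exAM, 31.6 and 61.9 in tAM, and 13.7 and 42.9 in HostAM, in much the same order, and their part in F2r was not tested. The ratio of exAM to tAM was 38.3-fold lower (95% counting interval 12.9 to 188, adjusted p = 0.00149). F2rl2 fell by 1.33 in exAM relative to tAM (SE 0.45, adjusted p = 0.0337). The difference of texAM over HostAM for F2r, 2.09 (SE 0.63), was not called by edgeR (adjusted p = 0.198) but was by DESeq2 (adjusted p = 0.0454) and with no filter (adjusted p = 5.64e-04). It moved with single libraries, at 3.23 without HostAM replicate 2 (adjusted p = 0.0674) and 1.45 without HostAM replicate 1 (0.485).

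Of the 8 genes of plasminogen, its activators and its receptors, 4 were tested, with 1 higher and 1 lower in exAM than in tAM. Eno1, enolase, a glycolytic enzyme that also binds plasminogen at the cell surface, rose by 0.82 (SE 0.11, adjusted p = 2.23e-04), and Plgrkt, a plasminogen receptor, fell by 0.43 (SE 0.12, adjusted p = 0.0158). For exAM over HostAM, Plgrkt was not called (-0.21, SE 0.12, adjusted p = 0.192), and for texAM over exAM it was called higher (0.33, SE 0.12, adjusted p = 0.0486). Of the 8 receptors for fibrin, fibrinogen and protease complexes, 7 were tested, with 4 higher and 1 lower. Itgam, the alpha chain of the fibrinogen-binding integrin Mac-1, had 949 and 604 counts in texAM, 6569 and 5324 in exAM, 405 and 381 in tAM, and 444 and 425 in HostAM. It rose by 4.36 in exAM over tAM (SE 0.20, adjusted p = 1.95e-07). Its exons overlap those of Gm49368 on the same strand, so its counts are uncertain too. Itgb3, which pairs with Itgav to bind vitronectin and fibrinogen, had 209 and 160 counts in texAM, 534 and 553 in exAM, 53 and 84 in tAM, and 86 and 63 in HostAM, and rose by 3.41 (SE 0.29, adjusted p = 1.02e-05). Itgav rose by 1.58 (SE 0.10, adjusted p = 1.80e-06) and Itgb2 by 0.48 (SE 0.08, adjusted p = 9.73e-04), with raw counts of Itgb2 between 4401 and 4814 in all libraries. Exons of Itgav overlap those of Gm13684 on the other strand. Mrc2, a collagen receptor that associates with the urokinase receptor, had 0 counts in exAM and 18 in tAM, at least 4.45-fold lower. HostAM also had 0 counts of Mrc2, and texAM had 54, so its absence was not particular to cultured cells.

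**Figure D5:**
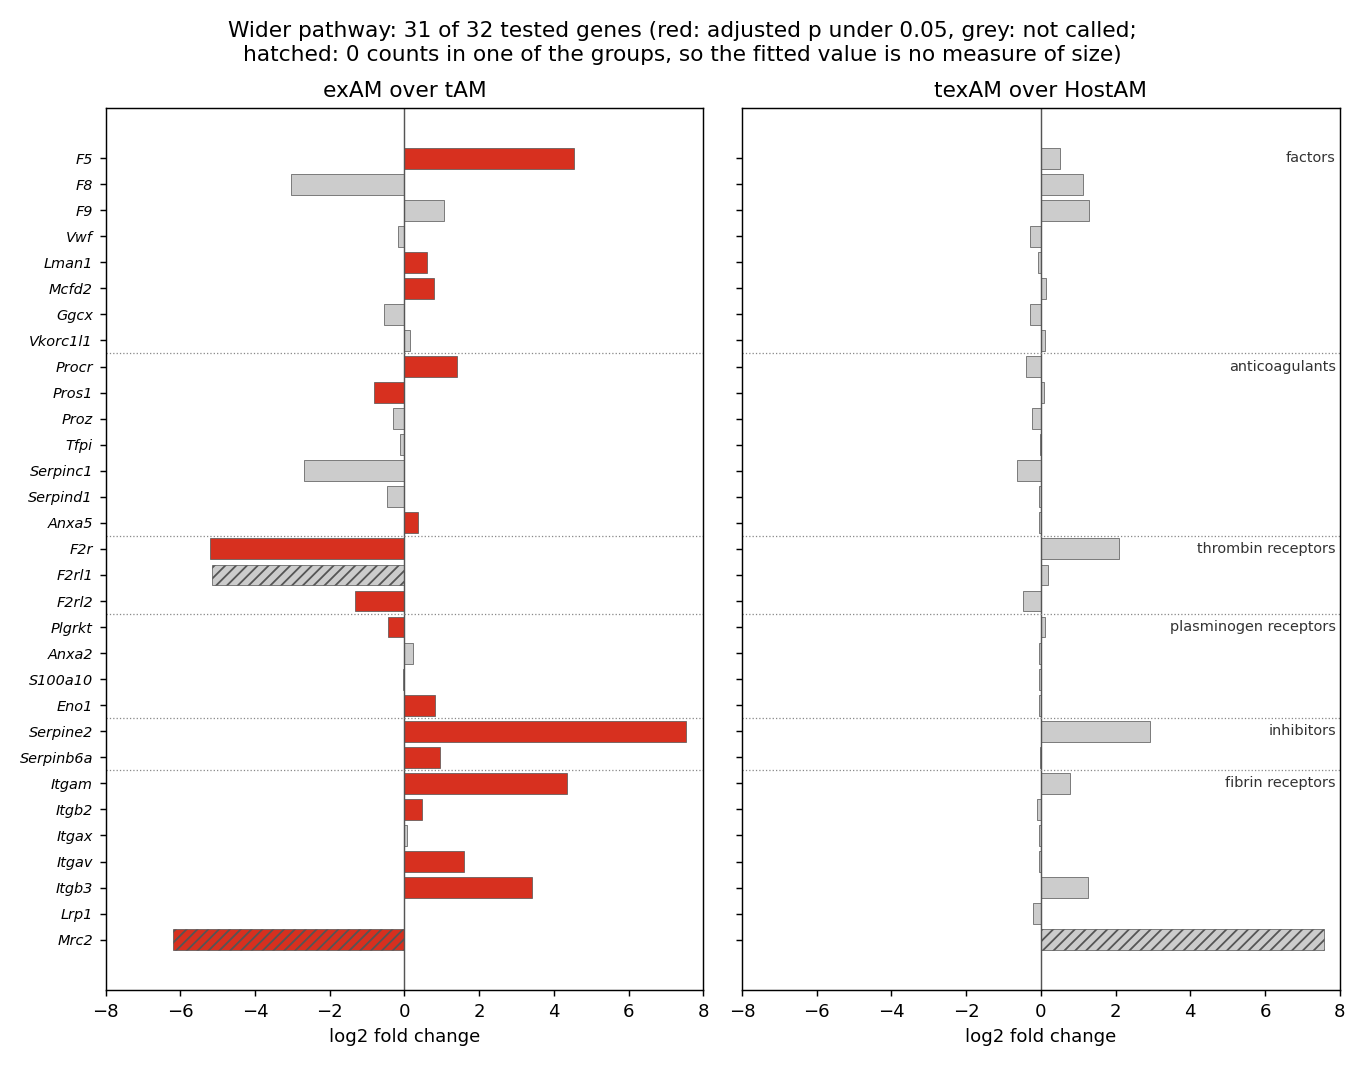
Log2 fold changes of 31 of the 32 tested genes of the wider lists for exAM over tAM (left) and texAM over HostAM (right); red bars had an adjusted p under 0.05, and hatched bars rest on 0 counts in a group. Itgam (4.36) and F5 (4.53) are among the bars to the right of 0 on the left, F2rl2 (-1.33) lies to the left of it, and no bar on the right is red.

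In the lung pairs 0 of the 32 were called by edgeR, and 7, 8 and 4 had an unadjusted p under 0.05 for texAM over tAM, texAM over HostAM and tAM over HostAM, where the shares of all tested genes were the 7.84%, 13.2% and 10.0% given above. Itgam and Itgb3 were higher in both texAM libraries than in the other lung libraries, by 0.83 (SE 0.18, adjusted p = 0.375) and 1.27 (SE 0.28, adjusted p = 0.375) over tAM. Neutrophil markers, 4 genes, mostly S100a9 and S100a8, with Ly6g at 0 throughout, summed to 110.0 and 47.6 CPM in texAM, 26.2 and 23.9 in tAM, and 17.4 and 25.7 in HostAM, and their part was not tested. The DESeq2 Wald test called both over tAM (adjusted p = 0.00107 for Itgam and 0.0226 for Itgb3), as did edgeR with no filter (1.76e-08 and 0.00498). Neither was called with a minimum of 50 counts (adjusted p = 0.199 and 0.201). DESeq2 called 2 of the 32 for texAM over tAM and 4 for texAM over HostAM, where it called 73 and 385 of the 14537 tested genes.

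Across the 8 libraries, F3 followed Plau most closely of the members (Pearson r = 0.93 of log2 CPM), and F10 ran against Plau (r = -0.68). Such values for F3 and Plau rest largely on the contrast of 2 exAM with 6 lung libraries. Those for Thbd and F10 rest on it less. Thbd overlapped between exAM and texAM, and F10 in tAM replicate 1 (179.7 CPM) lay near exAM (176 and 175 CPM). All r values are given with no p. Of 9885 candidate genes, those most like F3 were S100pbp (r = 0.990), Alg8 (0.989) and Ago2 (0.988), and those most like Plau were Vsig8 (0.995), Cmas (0.993) and Msantd3 (0.992). Plau had 1418 candidates over r = 0.9, F3 524 and Plaur 366, led by Gltp (0.988), Saraf (0.986) and Ndufa13 (0.983). F7 had 56, led by Kif16b (0.980), Ints9 (0.971) and Elf4 (0.959), and F10 had 50, led by Emc8 (0.958), Coq10a (0.955) and Ssbp4 (0.952). Thbd had 4, of which Nt5m (0.910), Slc25a13 (0.909) and Evi5l (0.909) were highest. The profiles of F3 and Plau were thus shared by many genes, and that of Thbd by few.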

How the data were processed

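The deposited values were raw counts of reads per gene for 37310 Ensembl gene IDs. The submitters' processing notes name Bowtie, HTSeq 0.6.1, R 3.3 and the build mm10 (GRCm38), without their settings. Duplicate removal, multimapping and strand are not given in the sources used here. cDNA was amplified before library preparation, per the labels' protocols. Counts are not unique molecules, and intervals and floors cover counting error only. Counts were analysed with edgeR 4.0.16, limma 3.58.1 and DESeq2 1.42.0 in R 4.3.3. Genes were kept by filterByExpr with a minimum count of 10, scaled by TMM and fitted with 1 coefficient per group to all 8 libraries (4 residual degrees of freedom, biological coefficient of variation 0.22), with robust dispersions, and 6 pairs of groups were tested by the quasi-likelihood F test. P-values measure the spread between pools. A fold against a group at 0 counts was set against 3 counts over the group. Positions and lengths are those of GENCODE M21, which held 32620 (87.4%) of the IDs. The code was tested on simulated counts. The members and lists were chosen with earlier results of these data known. Of the wider lists, up to 3 called genes per list and comparison, by size of change, and genes of at least 10 CPM could be named, with the 3 genes most correlated with each member, and Ddx3y, Xist, the single marker genes of other cell types and the genes at or near 0 counts were named after their values were seen. A gene that the rule names is not reported here. Alternatives were DESeq2 size factors and Wald test, library size without TMM, no filter, a minimum of 50 counts, the replicate number as a block, only the 4 libraries compared and leaving out each library. Scaling from genes at 0.5 counts per base or less, and no scaling, were added after seeing the data.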

Additional observations from a re-analysis of the deposited data

How the results depend on the processing

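The calls of F3 and Plau kept their direction and their side of the threshold under all alternatives run, for exAM over tAM, exAM over HostAM and texAM over exAM. With library size in place of TMM, the median of all genes for exAM over tAM moved to -0.29, against -0.09, and 34.5% of calls were higher, against 48.0%. For exAM over HostAM 35.2% were higher, against 47.3%, and for texAM over exAM 68.1%, against 53.1%. Under it the reversed values were F7 at -0.02 (exAM over tAM) and -0.07 (exAM over HostAM), Thbd at 0.05 (texAM over exAM) and F10 at 0.00 (texAM over HostAM). With no scaling, a choice made after seeing the data, Plaur was -0.08, -0.12 and 0.03 and F7 was 0.25 in the comparisons given above. Leaving out a library reversed the sign of 5 values, none of them called: Thbd ran from -0.39 to 0.02 for texAM over exAM (0.02 without texAM replicate 1) and from -0.03 to 0.39 for texAM over HostAM (-0.03 without texAM replicate 2), Plau from -0.02 to 0.44 for texAM over tAM (-0.02 without tAM replicate 2), F10 from -0.14 to 0.07 for texAM over HostAM (0.07 without HostAM replicate 1), and Plaur from -0.06 to 0.19 for tAM over HostAM (-0.06 without HostAM replicate 2 and -0.02 without tAM replicate 2). The causes were not tested.

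Replicate numbers did not pair the libraries: deviations of same-numbered libraries correlated at -0.06 to 0.01. With the number as a block, Plaur lost its call for exAM over tAM (adjusted p = 0.0663) and F10 for texAM over exAM (0.0691), and 0 genes were called for texAM over tAM and 29 for texAM over HostAM.

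The number of genes called in lung pairs depended on the filter and the test. For texAM over tAM it was 1 as reported, 238 with no filter, 73 by DESeq2's Wald test and 2 with only the 4 libraries compared. For texAM over HostAM it was 48, against 694, 106 with a minimum of 50 counts and 385 by DESeq2. For tAM over HostAM it was 6, against 425, 44 and 190. No filter called 2, 5 and 1 of the wider lists in these pairs, and DESeq2 called 2 and 4 in the first pairs. Both called 1 member, F3, for tAM over HostAM.

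Without 1 library at a time, genes called ran from 4698 to 6881 (exAM over tAM), 4591 to 6169 (exAM over HostAM), 4471 to 6796 (texAM over exAM), 0 to 5 (texAM over tAM), 1 to 90 (texAM over HostAM) and 0 to 26 (tAM over HostAM). Members called ran from 2 to 4, 2 to 4 and 2 to 5 in the exAM comparisons, and wider genes from 14 to 18, 14 to 17 and 11 to 21. Each call of F7, F10, Thbd and Plaur was lost in at least 1 of these fits, and F3 in lung cells rested on 3 to 32 counts a library.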
